A study of Mus musculus with 165 samples.

Results

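The compartment state of 7 genes of the inflammatory response was followed through 4 Hi-C tracks of mouse myeloid cells. Il1b, Tnf and Il6 encode cytokines, Cxcl2 and Ccl3 encode chemokines, Ptgs2 encodes a prostaglandin synthase, and Nfkbia encodes an inhibitor of NF-kB. The last 2 are thus neither cytokine nor chemokine genes. Each locus was taken as the 25 kb bins that start within 150 kb of a fixed mm9 position of the gene. This gave 13 bins for Ptgs2 and 12 for each of the others, or 85 of the 100644 bins with a value in all 4 tracks. On mm9 the positions are 129190000 of chromosome 2 (Il1b), 35340000 of chromosome 17 (Tnf), 30340000 of chromosome 5 (Il6), 91330000 of chromosome 5 (Cxcl2), 83460000 of chromosome 11 (Ccl3), 151950000 of chromosome 1 (Ptgs2) and 56590000 of chromosome 12 (Nfkbia). They are rounded, so a gene may reach into the bin beside the one that holds its position, and exons within the windows were not mapped here.

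All cells came from ECOMG, a C57BL/6 myeloid progenitor line that carries human E2A_ER_Pbx1b and is otherwise labelled wild type, grows on GM-CSF and stays undifferentiated with estradiol. The groups were undifferentiated progenitors, neutrophils made by 5 days without estradiol, and such neutrophils after 15 min or 30 min with 20 uM of the calcium ionophore A23187 in medium with 1 mM calcium. The labels name RPMI, with less calcium than 1 mM, for all groups, and the 1 mM for the activated samples only. Ionophore and added calcium thus cannot be told apart. As neutrophils of a cell line they are a model in culture, and the Hi-C files hold no expression values. Transcription libraries of the series were not analysed here, so neither cell identity nor transcription of these genes was checked. In situ Hi-C reads which stretches of DNA lie close together, and the deposited score is the first principal component (PC1) of that contact matrix. The progenitor track pools 7 libraries, the untreated neutrophil track pools 8 libraries of 7 replicates, and each activated track belongs to 1 sample.

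Chromatin that carries active genes tends to contact other active chromatin (compartment A), and silent chromatin contacts silent chromatin (compartment B). By the usual convention positive PC1 marks A and negative PC1 marks B. Cytokine and chemokine genes are known as targets of NF-kB, a transcription factor that IkB-alpha, the product of Nfkbia, holds in the cytoplasm until a stimulus destroys the inhibitor. Calcium signals can also act through NFAT factors, which calcineurin sends to the nucleus. Neutrophils are known to release IL-1beta, TNF and the chemokines Cxcl2 and Ccl3, which draw further neutrophils and macrophages to a site of damage.

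Each group has 1 track. Differences below therefore have no replicate check and no p-value, and the SD or range given is that over the bins of a locus, which are neighbours that share reads. No read number stands behind any PC1 value, so depth is unknown. A change of a locus mean by at least 0.25 PC1 units was called higher or lower, and set beside the same for 99695 overlapping windows of up to 12 bins over chromosomes 1 to 19 and X. Activated libraries were sequenced on other instrument models than progenitor and untreated libraries, which are labelled as re-analysed, so treatment and batch cannot be told apart. Local noise was estimated from how far each bin lay from the average of those 50 kb before and after it. Over the bins of the 7 loci its SD was 0.106 in the progenitor track, 0.117 in the untreated, 0.0785 in the 15 min and 0.0615 in the 30 min track. Over all bins it ran from 0.0773 in the 30 min track to 0.148 in the untreated track. Real differences between nearby bins also count in this measure, so it is not noise alone.

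All 7 loci had a mean PC1 above 0 in each of the 4 tracks. Of all windows, 43.2 to 47.4% were above 0, depending on the track. The median of the 7 loci was 1.50 in untreated neutrophils and 1.37 to 1.38 in the other tracks, while the median of all windows lay between -0.32 and -0.12. Single bins gave the same picture. In progenitors 74 of the 85 bins were positive (87.1%, against 42.7% of all bins), and in untreated neutrophils 83 (against 41.6%). At 15 and 30 min all 85 were, against 46.7% and 44.3% of all bins. The bins that were not positive were all at Ptgs2 or Cxcl2.

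Within the group the loci were of 2 kinds. Il1b, Tnf, Il6, Ccl3 and Nfkbia had means from 1.22 to 1.66 in every track, and the lowest of their 60 bins in any track was 1.12. Each of these means was above 83.8 to 98.3% of all windows of its track. Cxcl2 and Ptgs2 were lower, with means from 0.04 to 1.05, and their bins spread far more widely. This division was read from the values themselves and carries no test.

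**Figure D1:**
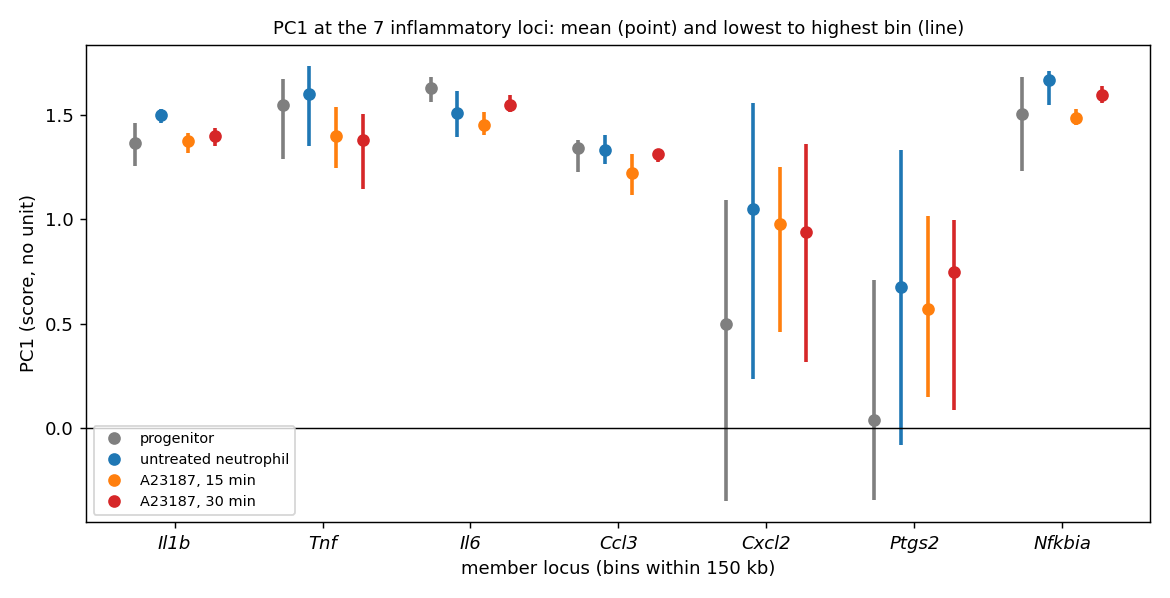
Mean PC1 (points) and lowest to highest bin (lines) at each locus from progenitors through untreated neutrophils to those given A23187 for 15 or 30 min. The 5 high loci lie above 1 throughout, whereas the Cxcl2 and Ptgs2 bins reach below 0 in progenitors.

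Il6 led the order in progenitors (1.63), and Nfkbia led it in the untreated (1.66), 15 min (1.48) and 30 min (1.59) tracks. The last 3 places went to Ccl3, Cxcl2 and Ptgs2 in that order in each track. Most neighbours in the order lay closer than the larger of their SDs over bins. The gaps that exceeded it were the step from Ccl3 to Cxcl2 in progenitors, from Il1b to Ccl3 in untreated neutrophils and at 15 min, from Cxcl2 to Ptgs2 at 15 min, and those from Nfkbia to Il6 and from Il6 to Il1b at 30 min.

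Ptgs2 encodes COX-2, the inducible enzyme that turns arachidonic acid into prostaglandin precursors, and its nearest annotated neighbour on one side is Pla2g4a, the phospholipase that releases arachidonic acid. Progenitors had a mean PC1 of 0.04 ± 0.29 at Ptgs2 (SD over 13 bins), untreated neutrophils 0.68 ± 0.43, the 15 min sample 0.57 ± 0.24 and the 30 min sample 0.75 ± 0.28. The progenitor mean thus sat at the border between compartments, where its sign depended on the summary (the median over bins was -0.0146), and the other means were in A. Untreated neutrophils were higher than progenitors by 0.64, and all 13 bins moved that way, by 0.26 to 0.84. Only 1.82% of all windows had a larger increase in that comparison.

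The gain at Ptgs2 was greatest in the bins from 151950001 to 152025000, which were already positive in progenitors (0.02 to 0.31). In progenitors 7 of the 13 bins were negative, among them the 4 from 151850001 to 151950000 of chromosome 1, with values from -0.12 to -0.01. The same 4 bins held 0.57 to 0.72 in untreated neutrophils, 0.51 to 0.56 at 15 min and 0.83 to 0.89 at 30 min. In progenitors they formed a dip between a peak of 0.88, outside the window on its lower-coordinate side, and one of 0.31. At 30 min the same peaks stood at 1.05 and 0.92, close to the bins between them. Around the position, the run of bins that were higher in untreated neutrophils by at least 0.25 reached from 151650001 to 152125000 (475 kb), with means of 0.73 in untreated neutrophils and 0.12 in progenitors.

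The A segment at Ptgs2, the run of positive bins that holds its position, measured 100 kb in the progenitor, 400 kb in the untreated, 725 kb in the 15 min and 450 kb in the 30 min track. In progenitors it began at the rounded position itself, which falls on a bin edge. The bins before and after that edge held -0.01 and 0.02, so the progenitor segment depends on the rounding. At 15 min the A segment ran on into the next A stretch on its higher-coordinate side. There the 100 kb that ended the untreated segment had a mean of 0.15, against -0.08 in untreated neutrophils. The authors' deposited list of positive domains of the untreated track holds Ptgs2 in a domain of 400 kb (151675001 to 152075000) with a score of 0.88, and 53.6% of the positive domains are shorter. The flank on the lower-coordinate side, 34 bins reaching 1 Mb from the position, was mostly B, with a mean between -0.77 and -0.55 in the 4 tracks. The other flank was mixed, with means between -0.11 and 0.29.

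Cxcl2, which encodes the neutrophil attractant MIP-2, lies among its relatives Cxcl1, Cxcl15 and Cxcl3 on one side, and its nearest neighbours on the other are Mthfd2l, Epgn and Ereg. Its mean PC1 was 0.50 ± 0.56 for progenitors (SD over 12 bins), 1.05 ± 0.51 for untreated neutrophils, 0.98 ± 0.26 after 15 min and 0.94 ± 0.42 after 30 min of A23187. Untreated neutrophils were higher than progenitors by 0.55, and all 12 bins moved that way, by 0.44 to 0.69. Of all windows, 2.89% had a larger increase. Alone, the bin that holds the position read 0.96 (progenitors), 1.40 (untreated), 1.13 (15 min) and 1.21 (30 min).

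Across the Cxcl2 locus PC1 sloped down from the side of the other Cxcl genes. The 6 bins from 91200001 to 91350000 of chromosome 5 held 1.40 to 1.55 in untreated neutrophils and 0.94 to 1.09 in progenitors. The last 4 bins, 91400001 to 91500000, were all negative in progenitors, with values from -0.34 to -0.001. All 4 were positive in the untreated (0.24 to 0.51), 15 min (0.46 to 0.80) and 30 min (0.32 to 0.51) tracks. The end of the A segment on this side thus lay 70 kb from the position in progenitors and 170 kb from it in untreated neutrophils, and 195 kb at both times of activation. Its other end lay 705 to 730 kb away in the 4 tracks, a range of 1 bin.

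The run of bins around Cxcl2 that were higher in untreated neutrophils by at least 0.25 spanned 575 kb (91000001 to 91575000), with means of 1.01 in untreated neutrophils and 0.51 in progenitors. The flanks within 1 Mb were higher as well, by 0.31 on the lower-coordinate and 0.15 on the higher-coordinate side, so the locus exceeded its surroundings by 0.32. At Ptgs2 the flanks were higher by 0.14 and 0.15, and the locus exceeded them by 0.49. The deposited domain that holds Cxcl2 measures 900 kb (90600001 to 91500000) and has a score of 1.15.

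**Figure D2:**
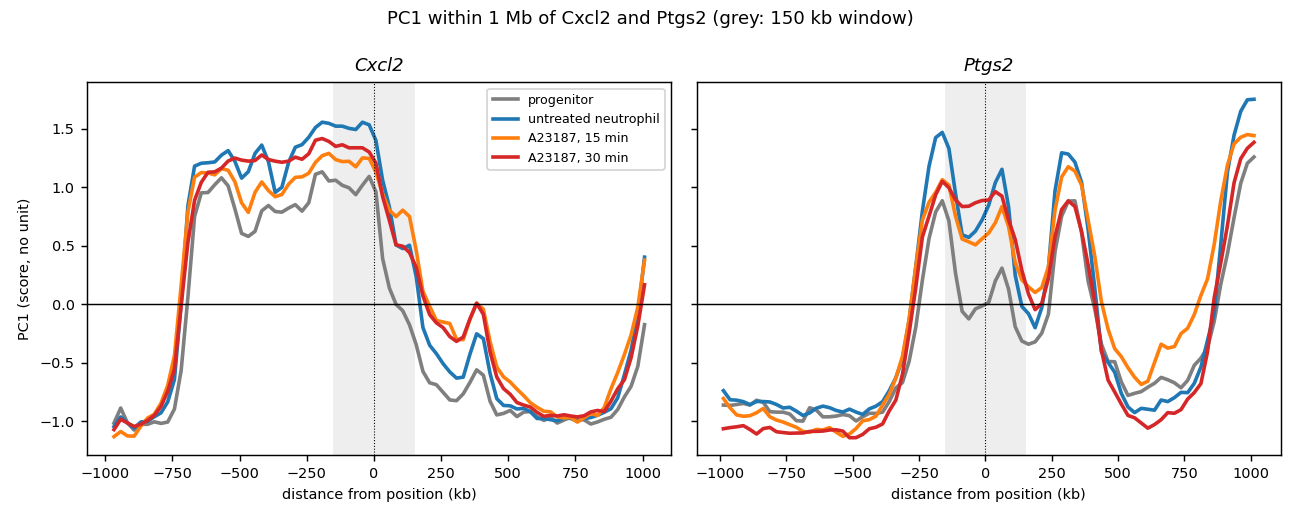
PC1 of each 25 kb bin within 1 Mb of Cxcl2 and Ptgs2, against distance from the position in kb, 1 line per track and the 150 kb window in grey. The progenitor line is the lowest throughout both windows, and at Cxcl2 it crosses 0 between the bins centred 57.5 kb and 82.5 kb from the position.

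For Cxcl2 and Ptgs2 the promoter sequences are shown because both loci were called higher in untreated neutrophils than in progenitors. That of Nfkbia is shown because it is the classic NF-kB target of the group. The sequences are the 250 bases before the start site in RefSeq, on GRCm38.p6, whose coordinates cannot be laid on the mm9 bins. The kappaB core searched was GGANTTTCC on both strands, and its matches are in capitals. Cxcl2 is read from chr5:90903649-90903898 (plus strand), Ptgs2 from chr1:150099781-150100030 (plus strand) and Nfkbia from chr12:55492648-55492897 (minus strand).
Cxcl2: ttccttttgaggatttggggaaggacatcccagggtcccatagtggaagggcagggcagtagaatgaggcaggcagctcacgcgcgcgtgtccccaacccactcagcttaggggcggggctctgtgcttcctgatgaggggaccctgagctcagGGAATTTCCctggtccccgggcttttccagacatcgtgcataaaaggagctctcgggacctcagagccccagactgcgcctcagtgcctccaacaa
Ptgs2: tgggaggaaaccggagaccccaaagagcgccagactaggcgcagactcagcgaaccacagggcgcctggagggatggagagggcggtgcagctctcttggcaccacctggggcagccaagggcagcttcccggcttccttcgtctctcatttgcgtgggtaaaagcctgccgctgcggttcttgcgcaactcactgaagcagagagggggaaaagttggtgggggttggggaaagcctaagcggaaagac
Nfkbia: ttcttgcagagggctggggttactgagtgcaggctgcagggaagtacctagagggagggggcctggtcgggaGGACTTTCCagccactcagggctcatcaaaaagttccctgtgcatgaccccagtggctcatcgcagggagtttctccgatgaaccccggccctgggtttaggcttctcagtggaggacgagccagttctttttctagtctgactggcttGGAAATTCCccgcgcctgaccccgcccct

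The kappaB core was found in 3 of the 7 promoters, once in Cxcl2 and Il6 and at 2 places in Nfkbia, and in 1.07% of all 32851 promoter entries. Of the loci called higher in untreated neutrophils than in progenitors, Cxcl2 holds it and Ptgs2 does not within these 250 bases. The NFAT core TGGAAA, also on both strands, was found in 5 of the 7 (not in Ccl3 or Ptgs2) and in 18.6% of all entries. In Nfkbia its 2 matches overlap those of the kappaB core. Only these letters were searched, so a promoter without a match may still hold another form of either site. Matches are descriptions of letters, and no binding was measured here.

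Il1b, Tnf and Il6 encode the cytokines that drive fever and the acute phase response. Their PC1 was high in all tracks and differed little between progenitors and untreated neutrophils. Il1b had 1.50 ± 0.02 in untreated neutrophils, against 1.37 ± 0.07 in progenitors (SD over 12 bins each), and all 12 bins were higher, by 0.02 to 0.25. Tnf had 1.60 ± 0.10 in untreated neutrophils, against 1.54 ± 0.11 in progenitors. Il6 went the other way, with 1.51 ± 0.07 in untreated neutrophils, against 1.63 ± 0.04 in progenitors, and all 12 bins were lower. Its flanks were lower by more, and the change minus that of the flanks was 0.06. Cxcl2, on the same chromosome, was higher in the same comparison, and the cause of either change was not tested.

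The cytokine loci lay inside long A segments. The A segment around Il1b, whose neighbour is Il1a, measured 7375 to 7675 kb in the 4 tracks and ended no nearer than 3560 kb from the position. Within 1 Mb every bin around Il1b and Tnf was positive in every track. Tnf lies in the major histocompatibility region between Ltb and Lta, which encode the lymphotoxins. Its A segment measured 5750 kb in untreated neutrophils and 13100 to 13725 kb in the other tracks. Most of the difference lay beyond a single bin on the lower-coordinate side, at -0.01 in untreated neutrophils and from 0.57 to 0.74 elsewhere. On the other side, 250 kb from 36675001 to 36925000 held -0.25 in untreated neutrophils, against 0.54 in progenitors.

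Il6 stood 790 kb from the border of its segment both before and after differentiation, 965 kb at 15 min and 815 kb at 30 min. At 15 min 33 of the 34 bins of the lower-coordinate flank were positive, against 26 in untreated neutrophils and in progenitors. That flank averaged 0.88 for progenitors, 0.70 for untreated neutrophils, 0.97 after 15 min and 0.80 after 30 min. The 750 kb beyond the untreated border, from 28800001 to 29550000, had a mean of 0.10 at 15 min, against -0.49 in untreated neutrophils, and stood at -0.43 at 30 min.

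Ccl3 encodes MIP-1alpha, a chemokine that attracts macrophages, and lies in a cluster with Ccl4 on one side and Ccl6, Ccl9 and Ccl5 on the other. Its PC1 was 1.33 ± 0.05 in untreated neutrophils, against 1.34 ± 0.04 in progenitors, the smallest difference of the 7 loci. Alone, the bin that holds the position read 1.32 (progenitors), 1.28 (untreated), 1.16 (15 min) and 1.30 (30 min). In each track a dip of 1 bin, centred 497.5 kb from the position on the lower-coordinate side, broke the high stretch. It held -0.02 at 15 min, 0.08 in progenitors and 0.13 at 30 min, against 0.34 in untreated neutrophils. The nearer end of the segment at 15 min was therefore 485 kb from the position, against 935 kb in untreated neutrophils.

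Nfkbia had 1.66 ± 0.06 in untreated neutrophils, against 1.50 ± 0.18 in progenitors. The last 6 bins held 1.55 to 1.71 in untreated neutrophils, against 1.23 to 1.53 in progenitors. The first 6 differed less, with 1.67 to 1.71 in untreated neutrophils, against 1.60 to 1.68 in progenitors. Nfkbia was the nearest of the 5 high loci to a border in progenitors (410 kb), untreated neutrophils (435 kb) and at 30 min (435 kb), and level with Ccl3 at 15 min (485 kb). PC1 was far lower beyond that border, and the higher-coordinate flank had a mean of -0.16 for progenitors, 0.01 for untreated neutrophils, 0.18 after 15 min and -0.04 after 30 min. The deposited domain that holds Nfkbia measures 1875 kb and has the highest score of the 7 (1.36), above 93.2% of the positive domains.

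**Figure D3:**
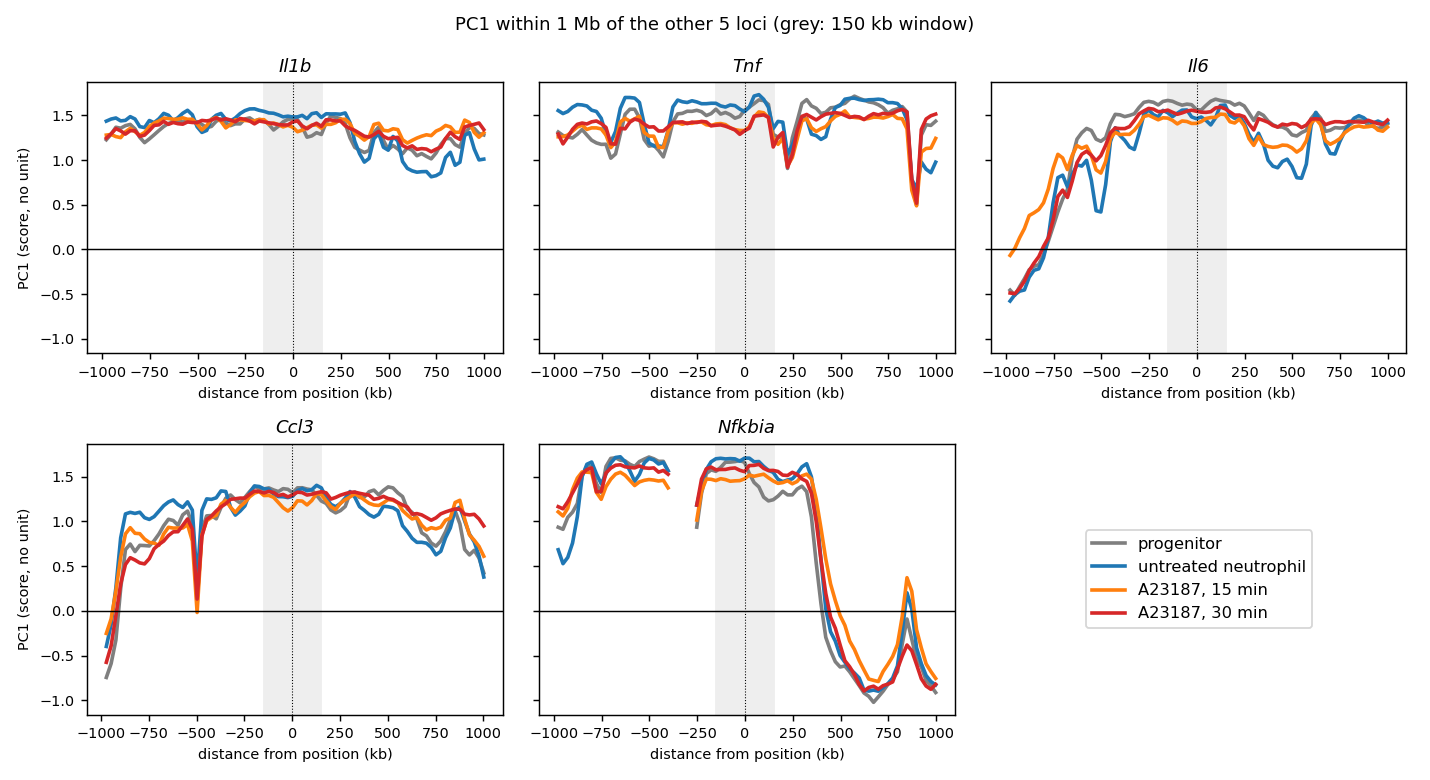
PC1 within 1 Mb of Il1b, Tnf, Il6, Ccl3 and Nfkbia, against distance from the position in kb, with 1 line per track, the 150 kb window in grey and a break where bins have no value. All 4 lines stay between 1.12 and 1.73 inside the windows.

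Counted over the group, 2 of the 7 loci were called higher in untreated neutrophils than in progenitors (Cxcl2 and Ptgs2), where 14.0% of all windows were. None was called lower, against 14.3% of all windows. The median change of the 7 loci was 0.13, and that of all windows 0.02. A count of 2 among 7 loci is too small to be read against that background.

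After 15 min with A23187 all 7 loci had a lower mean than in untreated neutrophils, by 0.06 to 0.20, and none passed the threshold in either direction. With each track quantile-normalized to the untreated track, however, 3 of the 7 were higher (Il6 by 0.13, Il1b by 0.03 and Nfkbia by 0.02) and Tnf was lower by 0.04 only. Among all windows 15.1% were called higher and 8.73% lower. The change was -0.20 at Tnf (1.40 at 15 min, against 1.60 in untreated neutrophils), -0.18 at Nfkbia (1.48 against 1.66) and -0.12 at Il1b (1.37 against 1.50). It was -0.11 at Ccl3, -0.10 at Ptgs2, -0.07 at Cxcl2 and -0.06 at Il6. Of the 85 bins 75 were lower. High windows went the same way in general: among the 23512 windows whose mean over the 4 tracks exceeds 1, 68.2% were lower at 15 min and the median change was -0.09. Of these high windows 23.4% had a lower change than Tnf and 27.2% a lower one than Nfkbia. PC1 has a mean near 0 and an SD of 1 to 1.01 on every chromosome of every track, so a value is relative to the rest of its chromosome.

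Inside the Cxcl2 window the change at 15 min was of opposite sign at its ends. The 8 bins from 91200001 to 91400000 were lower at 15 min than in untreated neutrophils, by up to 0.32, and the last 4 were higher, by up to 0.33. The lower bins belonged to a run of 13 (91025001 to 91350000, 325 kb) that were each lower by at least 0.25, with means of 1.20 at 15 min and 1.48 in untreated neutrophils. The slope was therefore flatter, and bins ranged from 0.46 to 1.25 at 15 min, against 0.24 to 1.55 in untreated neutrophils. At Ptgs2 likewise the range was 0.15 to 1.02 at 15 min, against -0.08 to 1.33 in untreated neutrophils, with 10 bins lower and 3 higher.

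At 30 min 5 of the 7 loci had a lower mean than in untreated neutrophils and 2 a higher one, again with none past the threshold. Of all windows 13.7% were called higher and 10.2% lower, and 41.1% were higher by any amount. Tnf had the lowest change (1.38 at 30 min, against 1.60 in untreated neutrophils, -0.22), with all 12 bins lower, by 0.11 to 0.28. Of the windows with a mean above 1, 11.1% had a lower one. Cxcl2 changed by -0.11, Il1b by -0.10, Nfkbia by -0.07 and Ccl3 by -0.02. Il6 was higher by 0.04 and Ptgs2 by 0.07. Apart from Tnf, Cxcl2 and Il1b, these directions depended on the setting. Ccl3 turned higher under 4 of the alternatives, by at most 0.02. Quantile normalization gave 0.08 at Nfkbia and -0.07 at Ptgs2, flank subtraction gave -0.10 at Il6, and windows of 300 kb gave -0.08 at Ptgs2. The flanks of Ptgs2 were lower by 0.20 at 30 min, so that the locus gained 0.28 over its surroundings.

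Between the activated samples 5 loci were higher at 30 min than at 15 min, by 0.02 to 0.18, and Tnf and Cxcl2 were lower by 0.02 and 0.04. None was called, while 6.91% of all windows were called higher and 12.2% lower. High windows were mostly higher at 30 min too (78.2%, median 0.07). The greatest difference was at Ptgs2, 0.75 at 30 min against 0.57 at 15 min, and 6 neighbouring bins around it (151850001 to 152000000) exceeded 0.25. With windows of 300 kb it was 0.02, below Nfkbia (0.11), Il6 (0.10) and Ccl3 (0.07). At Cxcl2 the sign turned with the bin alone (0.08), the median (0.03) and windows of 50 kb (0.01) or 300 kb (0.003), at Tnf with windows of 300 kb (0.003) and at Il1b with quantile normalization (-0.04). By their labels the times also differ in replicate number (replicate 1 at 30 min, 2 at 15 min), and these cannot be told apart.

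The direct comparison with progenitors does not use the untreated track. That track had the highest value of the local noise measure, which real structure can also raise. At 15 min Ptgs2 was above progenitors by 0.53 and Cxcl2 by 0.48, and both were called, with 16.2% of all windows called higher. At 30 min Ptgs2 was above progenitors by 0.71 and Cxcl2 by 0.44, with 10.7% of all windows called higher. A larger increase than that of Ptgs2 was found in 4.38% of windows at 15 min and 0.896% at 30 min. For Cxcl2 the shares were 5.67% and 4.09%. None of the 7 loci was called lower, beside 11.2% of windows at 15 min and 8.05% at 30 min. These comparisons share the progenitor track with each other and with the one above, so they are not independent.

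At the 5 high loci the activated samples differed less from progenitors. At 15 min they differed from progenitors by between -0.18 (Il6) and 0.01 (Il1b), and at 30 min by between -0.17 (Tnf) and 0.09 (Nfkbia). Il6, with 1.45 at 15 min and 1.55 at 30 min against 1.63 in progenitors, and Tnf, with 1.40 and 1.38 against 1.54, were below progenitors in all 12 bins at both times. With quantile normalization the Il6 differences were -0.05 at 15 min and -0.003 at 30 min, and that of Tnf at 15 min was -0.04. By sign, 11 of the 85 bins, all at Ptgs2 or Cxcl2, were positive at 15 min and negative in progenitors, and none the reverse. Over all bins the shares were 5.59% and 1.61%, so the absence of a reverse among 85 bins is not read as a result.

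**Figure D4:**
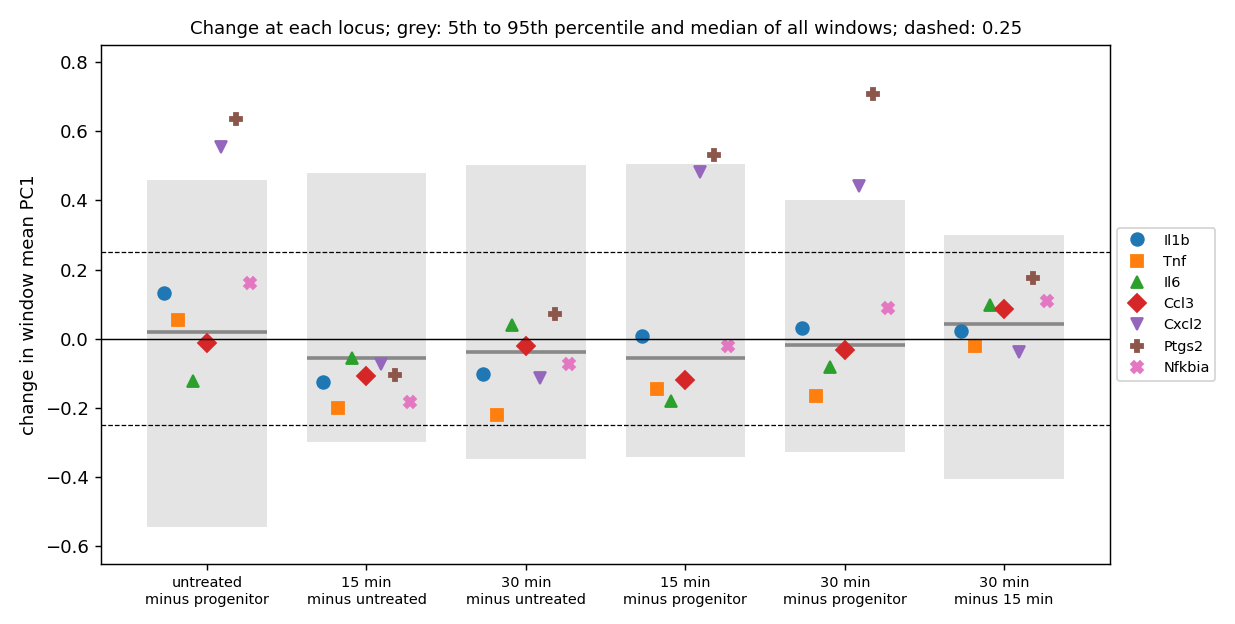
Change in mean PC1 of each locus in the 6 comparisons, first-named track minus the second. Grey bars span the 5th to 95th percentile of all windows, with their median as a line, and dashed lines mark 0.25. Ptgs2 and Cxcl2 lie above the upper dashed line in the 3 comparisons with progenitors, and no locus crosses a dashed line in the others.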

How the data were processed

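In situ Hi-C was analysed from 4 deposited tracks of PC1 scores and 2 deposited lists of positive and negative domains of the untreated track, with the authors' score and length of each domain. Per the submitters' processing notes the authors used HiC-Pro, Bowtie2 and HOMER on mm9. Their versions and settings were not given in the sources used here. PC1 scores, as deposited, are spaced at 25 kb and, per the deposited file names, come from windows of 50 kb. The other 148 samples, of other assays, were not analysed here.

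Bins with a value in all 4 tracks on 20 chromosomes were kept. A locus value is the mean over bins starting within 150 kb of the position, and flanks reach to 1 Mb. A background window holds the bins that start 125 kb before to 150 kb after a bin, with at least 10 of 12 present. Segments pass over bins without a value. The window step was tested on simulated data with known shifts. The simulated noise was independent between bins, unlike real neighbouring bins, so that test bears on the computation and not on the threshold. All 7 members were to be named in every comparison, and neighbours were taken by name from RefSeq (GRCm38.p6), the 3 nearest protein-coding genes on either side. Other genes of the pathway have no values here, because no mm9 annotation was used. Members, positions and lists were chosen with earlier results of these data known. Alternatives were other window widths, the median, quantile normalization, flank subtraction, another threshold and other bins. Python 3.11.15, numpy 2.4.6 and pandas 2.3.3 were used.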

Additional observations from a re-analysis of the deposited data

Results flagged for a closer look

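Changes from untreated neutrophils had opposite signs at 15 min and 30 min at 2 of the 7 loci, with 1 track per time, so the difference was not tested. Il6 changed by 0.04 after 30 min and -0.06 after 15 min, a difference of 0.0978. Ptgs2 changed by 0.07 after 30 min and -0.10 after 15 min, a difference of 0.177. The opposite signs depended on the setting. With quantile normalization Il6 had 0.18 after 30 min and 0.13 after 15 min, and Ptgs2 had -0.07 and -0.33. Il6 was lower at both times with flank subtraction (-0.10 at 30 min and -0.21 at 15 min), and Ptgs2 with windows of 300 kb (-0.08 and -0.10). As reported, none of these 4 changes reached 0.25, and both comparisons share the untreated track.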

How the results depend on the processing

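No paired analysis was possible because each group is 1 deposited track, with replicates pooled or single; for the same reason no replicate could be left out. Of the recomputed counts of loci, 101 were within 1.5 times of the value reported and 15 were not. The calls of Cxcl2 and Ptgs2 as higher in untreated neutrophils than in progenitors, and the 0 calls in the other direction, held under every alternative run. Against progenitors, only 1 locus (Ptgs2) in place of 2 was higher at 15 min and at 30 min with the bin that holds the position alone, with flank subtraction and with a threshold of 0.5. At 15 min 1 locus in place of 0 was lower than in untreated neutrophils with the bin alone (Cxcl2), with quantile normalization (Ptgs2) and with flank subtraction (Nfkbia). At 30 min 1 locus (Ptgs2) in place of 0 was higher than in untreated neutrophils with flank subtraction. Ptgs2 was 1 locus in place of 0 higher at 30 min than at 15 min with the bin alone, with windows of 50 kb, with the median, with quantile normalization and with flank subtraction. The Ptgs2 mean in progenitors changed sign with the median (-0.0146) and with quantile normalization (-0.0129), so 6 of 7 loci were then in A. Of the levels and changes of single loci, 348 moved by less than the SD over bins, 84 by more, and 2 were the Ptgs2 levels just given. That SD is wide where PC1 slopes, so loci on a slope pass more easily. At Cxcl2 in progenitors it was 0.56, and a level of 0.96 with the bin alone, against 0.50 reported, is among the 348. The 348 include 42 changes recomputed from bins with a value in the 2 tracks compared. These equalled the reported changes, as did the 12 counts from that alternative, so they are no check. Nor are the untreated levels after quantile normalization, which cannot move them. Of 294 recomputed changes, those 42 included, 30 turned sign, most often with quantile normalization (8) and windows of 300 kb (7). The largest reported size among the 30 was 0.18. For all of these the cause was not tested.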
